A study of Mus musculus with 6 samples.

Results

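Chromatin and epigenetic regulators that are often mutated or needed in leukaemia were followed in LT-HSC of mouse bone marrow, the long-term haematopoietic stem cells from which all blood lineages can be rebuilt. The set was given as 42 gene names, of which 40 were measured, out of 22180 genes with a probe set of their own on the array. Af4 is an older name of Aff1, which is in the set, and the probe set of Bcor carries a second gene symbol, so neither name had a value. Each gene was read from the probe set annotated to it alone, taking the one with the highest mean over the 6 arrays. The measured members were 8 genes of DNA methylation, 13 of Polycomb complexes, 7 of the MLL and menin complex with its partners, 4 of cohesin, and 8 others, most of them enzymes of histone acetylation and demethylation. They were chosen by name and function, with earlier results of these data known.

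The arrays compared 3 pools of control animals with 3 pools of animals expressing NPMc+, the mutant form of nucleophosmin that is displaced to the cytoplasm and is frequent in acute myeloid leukaemia. The strain is given as C57/BL6 for both groups, and LT-HSC were sorted by flow cytometry from bone marrow, 4 months after a transplant of marrow. Every array holds RNA of a pool, so animals within a pool cannot be told apart. The promoter or cell type that drives the mutant, what the control animals carry, the animals' age, and whether cells of the transplanted host were removed are not stated in the labels.

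These genes write, read or erase marks on chromatin. The DNA methyltransferases place methyl groups on cytosines of CpG dinucleotides, Tet enzymes oxidise them, and the isocitrate dehydrogenases Idh1 and Idh2 make a cofactor that the Tet enzymes need. Polycomb complexes place repressive marks on histones, and MLL, with menin, keeps developmental genes such as the Hoxa genes active; cells of NPM1-mutant leukaemia are known to depend on the MLL and menin contact. Cohesin is a ring that holds DNA loops and sister chromatids together.

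CpG is the letter pair that the DNA methyltransferases modify, and it is dense before the starts of most of these genes. RefSeq promoter windows (build GRCm38.p6) were matched for 32 of the 40 measured members. In the 250 bases before the start, taking the start richest in CpG where a gene has several, these members held a median of 23 CpG, from 10 in Men1 to 51 in Tet2, against a median of 6 over 27025 genes. Of the 32, 26 held at least 17 CpG, as did 25.6% of all genes in the table. The last 100 bases before the start are shown for the 3 members of this table whose difference had an unadjusted p under 0.05, with CpG in capitals. Dnmt3a is shown at an upstream and at a downstream start, and Men1 at the first of its 3 listed starts.
Dnmt3b, chr2:153649349-153649448, plus strand: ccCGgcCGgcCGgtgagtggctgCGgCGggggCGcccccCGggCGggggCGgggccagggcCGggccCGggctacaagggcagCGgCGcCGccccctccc
Dnmt3a, upstream start, chr12:3806880-3806979, plus strand: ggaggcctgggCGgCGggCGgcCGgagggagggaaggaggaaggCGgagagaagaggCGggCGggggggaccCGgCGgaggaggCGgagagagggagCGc
Dnmt3a, downstream start, chr12:3891644-3891743, plus strand: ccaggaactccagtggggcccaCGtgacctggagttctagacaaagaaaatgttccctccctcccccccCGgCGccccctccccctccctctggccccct
Men1, chr19:6334879-6334978, plus strand: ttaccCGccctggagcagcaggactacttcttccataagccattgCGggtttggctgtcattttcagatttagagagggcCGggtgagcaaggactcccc
The 100 bases held 14 CpG for Dnmt3b, 11 and 3 for the upstream and downstream starts of Dnmt3a, and 3 for Men1. Another Dnmt3a start, between those shown, held 17 CpG in 100 bases and 40 in 250. A start-specific reading of Dnmt3a was not possible, because 1 probe set stood for the gene.

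Averaging the 2 pools of a pair gave 1 common value for pairs 1, 2 and 3 in 100% of the deposited probe sets, within 0.001 log2 units, so the replicate number had already been taken out. A gene's control and NPMc+ values therefore mirror each other around 1 mean and have the same SD. What the pools of a pair shared is removed from that SD, so it does not give the full spread between pools. The independent measurements are the 3 differences within pairs, and the groups fail to overlap exactly when these have 1 sign. Differences are NPMc+ minus control in log2 units and were tested with limma, with the replicate number as a block. Their intervals are 95% intervals.

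Sex-linked transcripts and markers of other cell types moved with the groups. Xist, which coats and silences 1 X chromosome in female cells, differed by -5.44 and -5.39 in pairs 1 and 2 and by 0.48 in pair 3, and the Y-linked Uty by 4.68, 0.93 and 0.35, Kdm5d by 3.48, 1.29 and -0.67 and Eif2s3y by 5.49, 0.36 and -0.79; the labels give no sex. All 10 B cell markers tested were lower in NPMc+, and 7 had an unadjusted limma p under 0.05 (3.02% of all genes tested were lower at that threshold). Their mean level was 5.98 to 6.0 in control pools and 4.72 to 4.74 in NPMc+ pools. Of 17 neutrophil and monocyte markers 13 were lower, with a mean level of 9.40 to 9.80 in control and 8.87 to 9.27 in NPMc+. All 9 erythroid markers were lower (6.14 to 6.62 against 5.48 to 5.96), 8 of 9 megakaryocyte markers were higher (5.22 to 5.39 against 6.03 to 6.20), and 12 of 15 LT-HSC markers were higher (5.59 to 5.74 against 6.07 to 6.22). Of 12 T and NK cell markers 8 were lower (5.23 to 5.47 against 4.79 to 5.03). This list was split: at an unadjusted limma p under 0.05, 4 were lower and 3 higher (3.02% and 5.95% of all genes). The 3 higher ones were Gzmb, Lat and Nkg7. Of 28 genes of cycling cells, 18 were lower (8.0 to 8.25 against 8.03 to 8.28), with pair medians of -0.18, 0.19 and -0.19. These marker counts stand beside 54.9% of all genes tested that were higher in NPMc+. Values on this scale have no zero and no background was measured, so absence of a marker cannot be called. The part of cell makeup, of the animals' sex and of the cell cycle in the differences below was not tested, and a change in the share of cells of a type cannot be told apart from a change per cell.

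None of the 40 members, and none of the 16635 genes tested, passed an adjusted p of 0.05 in limma (0% of genes; 1492, or 8.97%, had an unadjusted p under 0.05). At an unadjusted p under 0.05, 4 of the 40 members were higher in NPMc+ and 0 lower: Dnmt3b, Phf6, Dnmt3a and Men1. That is 10% of members against 5.95% of all genes tested in the higher direction and 3.02% in the lower, and against 7.06% for the higher direction among genes above the 50th percentile of mean level. The share is near the background and is not read as a result about the members. The direction was more uneven. Of the 40 members 30 were above 0, as were 54.9% of all genes, and 13 were higher in all 3 pairs (32.5% against 17.4% of all genes and 21.5% of genes above the 50th percentile), while 2 were lower in all 3 pairs (12.8% of all genes; 30.2% of all genes had 1 sign in all pairs). The median difference over the members was 0.14, against 0.03 over all genes tested; among genes above the 50th percentile these medians were 0.15 for members and 0.09 for all. Across 5 wider lists of chromatin genes, described below, 145 genes were tested and their median was 0.13. Of these 99 were above 0 and 36 (24.8%) were higher in all 3 pairs. The lean was thus shared with other chromatin genes, and it was not tested. Limma without the block assumes 4 residual degrees of freedom where these values hold 2, so its calls are not read as results. It put 5 members higher at an adjusted p under 0.05, Kdm6b beside the 4 above. Of all genes 4.98% passed, 3.35% in the higher direction. That fit put 12 members higher at an unadjusted p under 0.05, as it did 15.0% of all genes.

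**Figure D1:**
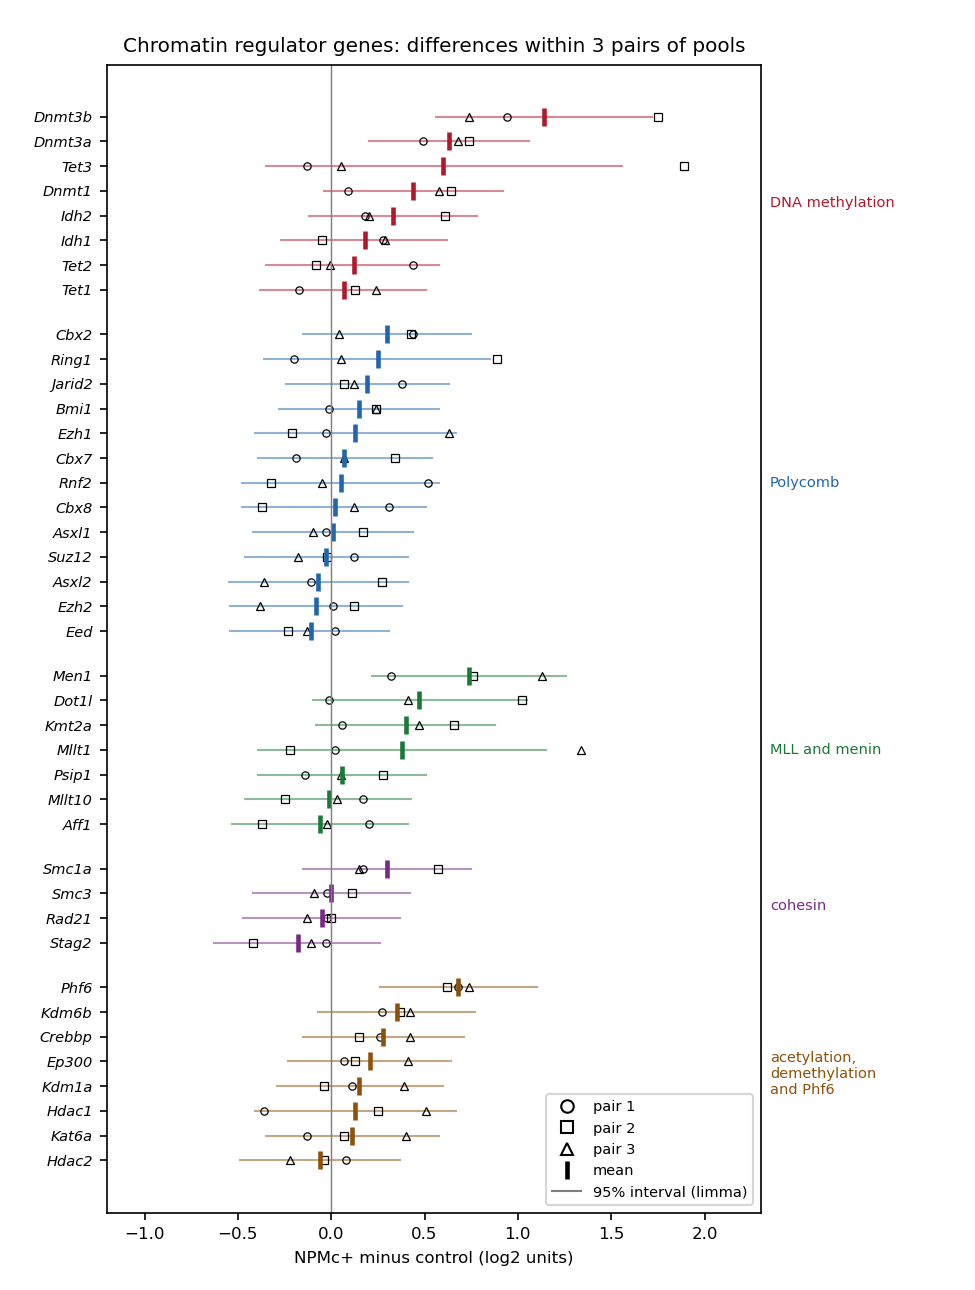
Differences between NPMc+ and control (horizontal axis, log2 units) of the 40 measured chromatin regulator genes, grouped by role. Open symbols are the 3 pairs, the coloured bar is their mean and the thin line the 95% interval from limma; the intervals of Dnmt3b, Dnmt3a, Men1 and Phf6 lie above 0, and those of the other 36 include it.

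The DNA methyltransferase genes were higher in NPMc+ in every pair, with the largest difference of all members in Dnmt3b. Dnmt3b, which places new methyl groups mainly in early development, had log2 levels of 5.49, 5.09 and 5.60 in control pools 1, 2 and 3 and of 6.44, 6.84 and 6.33 in NPMc+ pools. The lowest NPMc+ pool lay above the highest control pool, and pair 2 had the widest gap. Its mean was 5.39 ± 0.27 in control and 6.54 ± 0.27 in NPMc+ (SD, n = 3), a difference of 1.14 ± 0.24 (SE; interval 0.56 to 1.72), or 2.21-fold (limma p 0.00265, adjusted p 0.34).

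Dnmt3a, the other enzyme of new methylation and one of the most often mutated genes of clonal haematopoiesis, had levels of 5.44, 5.31 and 5.34 in control and 5.92, 6.05 and 6.02 in NPMc+. With the replicate number taken out, the values of each group were close together, with no overlap. It was 1.55-fold higher in NPMc+, by 0.63 ± 0.18 (SE; interval 0.20 to 1.06; limma p 0.0105, adjusted p 0.43). Dnmt1, which copies methylation to the new strand after replication, had levels of 9.26, 8.98 and 9.01 against 9.35, 9.62 and 9.59. It too was higher in each pair, though by as little as 0.09 in pair 1, and its difference of 0.44 ± 0.20 (SE) did not reach an unadjusted p of 0.05 (limma p 0.0662). With an intensity trend in the variance prior, the limma p of Dnmt1 was 0.0435.

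The Tet genes did not have 1 direction. Tet1 differed by -0.17, 0.13 and 0.24 in pairs 1, 2 and 3, and Tet2, a frequent target of mutation in clonal haematopoiesis, by 0.44, -0.08 and -0.004. Their mean differences of 0.07 and 0.12 had intervals of -0.38 to 0.51 and -0.35 to 0.58. Tet3 had a mean difference of 0.60, but pair 2 supplied it. Its levels were 5.39, 4.38 and 5.29 in control and 5.25, 6.26 and 5.35 in NPMc+, so pair 2 differed by 1.89 and the others by -0.13 and 0.05 (interval of the mean -0.35 to 1.56). Whether the methyltransferase genes differed from the Tet genes was not tested. Idh2, the mitochondrial isocitrate dehydrogenase of the set, was higher in all pairs, by 0.18, 0.61 and 0.20, with a mean of 0.33 (interval -0.12 to 0.78), and the cytosolic Idh1 by a mean of 0.18 (interval -0.27 to 0.62).

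Together all 8 genes of DNA methylation were above 0 (54.9% of all genes were), and their median difference was 0.38. At an unadjusted limma p under 0.05, 2 were higher, and 4 were higher in all 3 pairs (5.95% and 17.4% of all genes). The pair medians were 0.23, 0.63 and 0.27, and without pair 2 the median was 0.25. The count above 0 did not hold in every setting. Tet1 differed by -0.02 under quantile normalization and by -0.02 without pair 3. Tet2 differed by -0.04 without pair 1 and Tet3 by -0.04 without pair 2. In a wider list of the same pathway, 18 genes were tested and 11 were above 0, with a median of 0.07. At an unadjusted limma p under 0.05, 2 were higher and 0 lower (5.95% and 3.02% of all genes). The 2 were Mbd4, a glycosylase that repairs mismatches at CpG (0.58 ± 0.22, SE), and Zbtb38, a zinc finger protein that binds methylated DNA (0.49 ± 0.17, SE).

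**Figure D2:**
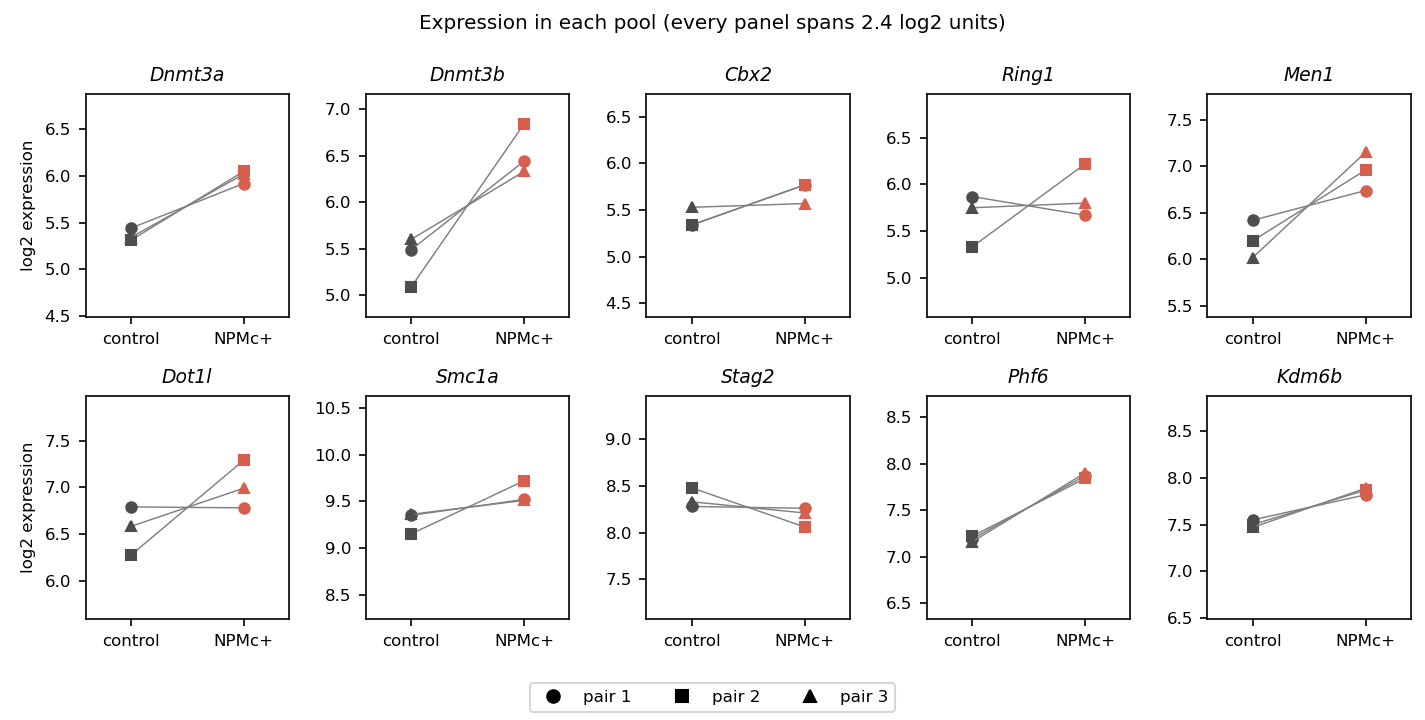
Expression in each pool (vertical axis, log2 units; every panel spans the same range) of the 10 members described in full, with control pools on the left and NPMc+ pools on the right of each panel. Symbols mark pairs and grey lines join the pools of a pair. Phf6, Kdm6b and Dnmt3a show 3 nearly parallel lines, whereas Ring1 and Dot1l differ most in pair 2. In pair 1 Ring1 leans the other way and Dot1l is almost level.

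Polycomb genes had a median difference of 0.05 over 13 genes, with pair medians of 0.01, 0.12 and 0.04. Of these genes 0 reached an unadjusted p under 0.05 in limma in either direction (8.97% of all genes did), and the differences ran from -0.11 in Eed to 0.30 in Cbx2. The catalytic subunit of the complex PRC2, Ezh2, differed by 0.01, 0.12 and -0.38 in pairs 1, 2 and 3, and the interval of its mean, -0.54 to 0.38, allows a ratio of NPMc+ to control between 0.686 and 1.30. Of the core partners of Ezh2, Eed differed by a mean of -0.11 (interval -0.54 to 0.31) and Suz12 by -0.03 (-0.46 to 0.41). Ezh1, the alternative catalytic subunit found in resting cells, differed by 0.13 on average but by -0.03, -0.21 and 0.63 in the pairs. Jarid2, which helps to bring PRC2 to DNA, was higher in all 3 pairs, by 0.38, 0.07 and 0.12.

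PRC1 is the Polycomb complex that ubiquitinates histone H2A and reads the mark of PRC2. Of its genes, Cbx2, a reader of the PRC2 mark, had levels of 5.34, 5.34 and 5.53 in control and 5.77, 5.77 and 5.57 in NPMc+. The groups did not overlap, but pair 3 differed by only 0.04, and the mean difference was 0.30 ± 0.19 (SE; limma p 0.155, adjusted p 0.703). Ring1, one of the ubiquitin ligases of PRC1, had levels of 5.87, 5.33 and 5.75 against 5.67, 6.22 and 5.80. Here the groups overlapped, and pair 2 (0.89) gave most of the mean difference of 0.25 ± 0.25 (SE; limma p 0.36, adjusted p 0.836). Its partner ligase Rnf2 differed by 0.52, -0.32 and -0.05. Bmi1, a PRC1 subunit required for self-renewal of stem cells, differed by -0.01, 0.24 and 0.24, with an interval of -0.28 to 0.58 around the mean. Cbx7 and Cbx8, which compete with Cbx2 for a place in PRC1, had mean differences of 0.07 and 0.02.

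Asxl1 and Asxl2, which activate the enzyme that removes ubiquitin from histone H2A, differed by 0.01 and -0.07 (intervals -0.42 to 0.44 and -0.55 to 0.41). In the wider Polycomb list 32 genes were tested, with a median of 0.12. Of these 2 were higher at an unadjusted limma p under 0.05 and 0 lower (5.95% and 3.02% of all genes). They were Pcgf5, a subunit of a variant PRC1 (0.56 ± 0.18, SE), and Bap1, the deubiquitinase that works with the Asxl proteins (0.53 ± 0.18, SE).

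Among MLL and menin genes, Men1 was the member with the largest difference. Men1, the gene of menin, had levels of 6.42, 6.20 and 6.02 in control pools and 6.74, 6.96 and 7.15 in NPMc+ pools. Every NPMc+ pool lay above every control pool, with the smallest gap in pair 1 and the largest in pair 3. The means were 6.21 ± 0.20 and 6.95 ± 0.20 (SD, n = 3), a 1.67-fold difference of 0.74 ± 0.22 (SE; interval 0.22 to 1.26; limma p 0.0124, adjusted p 0.447). Without pair 3 the difference was 0.54 and the limma p 0.0728.

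Kmt2a, the gene of MLL itself, was higher in each pair, by 0.06, 0.66 and 0.47, and its mean of 0.40 ± 0.20 (SE) gave a limma p of 0.0891. Dot1l, the methyltransferase that MLL fusion proteins recruit, had levels of 6.79, 6.27 and 6.58 in control and 6.78, 7.29 and 6.99 in NPMc+. In pair 1 the pools were almost equal and in pair 2 they differed by 1.02, so the groups overlapped. The mean difference of Dot1l was 0.47 ± 0.24 (SE; interval -0.10 to 1.05; limma p 0.0928, adjusted p 0.63). It was 0.71 without pair 1 (limma p 0.0464), 0.20 without pair 2 (limma p 0.428) and 0.50 without pair 3 (limma p 0.147).

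Mllt1, a reader of acetylated histones in the elongation complex, resembled Tet3 in that 1 pair stood apart. It differed by 0.02, -0.22 and 1.34 in pairs 1, 2 and 3, with levels of 5.23 in control pool 3 and 6.57 in NPMc+ pool 3. The remaining genes lay near 0. Psip1, whose protein tethers menin and MLL to chromatin, differed by 0.06, Mllt10, a partner of Dot1l, by -0.01, and Aff1, a scaffold of the elongation complex, by -0.06. Of the 7 genes 5 were above 0 and 2 were higher in all pairs (54.9% and 17.4% of all genes). Their median was 0.38, and the pair medians were 0.06, 0.28 and 0.41. The median was 0.56 without pair 1, 0.20 without pair 2 and 0.07 without pair 3.

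In the wider MLL list 31 genes were tested, with a median of 0.19. At an unadjusted limma p under 0.05, 1 was higher and 1 lower (5.95% and 3.02% of all genes). Aff3, a relative of Aff1, was 2.46-fold higher (1.30 ± 0.28, SE), with pair differences of 0.84, 0.94 and 2.11. Aff2 differed by -0.85 ± 0.35 (SE), with pair differences of -0.40, -0.20 and -1.96 and means of 3.84 in control and 2.98 in NPMc+. The NPMc+ mean lay under the lowest mean tested, 3.01, so Aff2 passed the filter through its control level. A list of known targets of MLL in leukaemia was drawn up with earlier results of these data known, so its counts are description only. All 9 were above 0, with a median of 0.61, and 6 had an unadjusted limma p under 0.05. Of all genes 54.9% were above 0 and 5.95% were higher at that threshold. Pbx3, Eya1 and Mef2c did not reach it (limma p 0.149, 0.166 and 0.406), and Mecom and Meis1 are also in the LT-HSC marker list. Hoxa7 differed by 0.84, 1.05 and 1.0 and Hoxa9 by 1.42, 1.36 and 0.39 in pairs 1, 2 and 3, and Meis1, the partner of Hox proteins, by 0.96, 0.33 and 1.29.

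Of the 4 cohesin genes, 0 reached an unadjusted p under 0.05 in limma (8.97% of all genes did), and their median difference was -0.03. In all 3 pairs 1 was higher and 2 were lower (17.4% and 12.8% of all genes). Smc3 and Rad21, both parts of the ring, had pair differences between -0.13 and 0.11. Smc3 had levels of 9.61, 9.54 and 9.64 in control and 9.59, 9.65 and 9.55 in NPMc+, and its interval of -0.42 to 0.42 allows a ratio between 0.745 and 1.34. For Rad21 the mean difference was -0.05 and the ratio lay between 0.721 and 1.29.

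Smc1a, the ring partner of Smc3, had levels of 9.35, 9.15 and 9.36 against 9.52, 9.72 and 9.51. It was higher in each pair without overlap of the groups, and its mean difference was 0.30 ± 0.19 (SE; interval -0.15 to 0.75, limma p 0.161, adjusted p 0.711). Stag2, the cohesin subunit most often mutated in myeloid neoplasms, had levels of 8.28, 8.48 and 8.33 against 8.26, 8.06 and 8.21. It was lower in each pair, mainly in pair 2, and differed by -0.18 ± 0.19 (SE; interval -0.63 to 0.26, limma p 0.356, adjusted p 0.836). Smc1a and Stag2 both lie on the X chromosome. In pairs 1, 2 and 3 Smc1a differed by 0.17, 0.57 and 0.15 and Stag2 by -0.03, -0.42 and -0.11. Whether the animals' sex has a part in these values was not tested. The 16 other cohesin genes tested had a median of 0.11. At an unadjusted limma p under 0.05, 1 was higher and 0 lower (5.95% and 3.02% of all genes). It was Rec8, the kleisin of meiosis, at 1.94-fold (0.95 ± 0.20, SE).

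Of the other members, Phf6 had the most even difference of all genes described in full. Phf6, a chromatin-binding protein of the nucleolus and nucleoplasm that is mutated in T cell and myeloid leukaemia, had levels of 7.19, 7.22 and 7.16 in control pools and 7.87, 7.84 and 7.90 in NPMc+ pools. With the replicate number taken out, the SD within each group was 0.03 (n = 3), and the groups did not overlap. The difference was 0.68 ± 0.17 (SE; interval 0.26 to 1.1), or 1.6-fold (limma p 0.00685, adjusted p 0.41). Phf6 is X-linked, and it differed by 0.68, 0.62 and 0.74 in pairs 1, 2 and 3. Whether the animals' sex has a part in this was not tested.

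Kdm6b, which removes the mark placed by PRC2, had levels of 7.55, 7.5 and 7.47 in control and 7.82, 7.87 and 7.89 in NPMc+. The groups did not overlap, and the difference was 0.35 ± 0.18 (SE; interval -0.07 to 0.77; limma p 0.0859, adjusted p 0.623). A second, dimmer probe set of Kdm6b differed by -0.43, 1.19 and -0.30, so its probe sets disagree in pairs 1 and 3. The related acetyltransferases Crebbp and Ep300 were both higher in all 3 pairs. Crebbp differed by 0.26, 0.15 and 0.42 and Ep300 by 0.07, 0.13 and 0.41, with mean differences of 0.28 and 0.21 and limma p-values of 0.168 and 0.299.

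Kat6a, an acetyltransferase needed for stem cell maintenance, and Kdm1a, a demethylase that acts with corepressors, had mean differences of 0.11 and 0.15. Of the deacetylases, Hdac1 differed by -0.36, 0.25 and 0.51 and Hdac2 by 0.08, -0.04 and -0.22, so neither had 1 direction. Of the 8 genes 7 were above 0 and 4 were higher in all pairs (54.9% and 17.4% of all genes). At an unadjusted limma p under 0.05, 1 was higher (5.95% of all genes). Their median was 0.18, with pair medians of 0.09, 0.14 and 0.42. Without pair 3 that median was 0.07, and without pair 1 it was 0.28. In a wider list of acetylation and demethylation genes 48 were tested, with a median of 0.15. Of these 37 were above 0 and 17 were higher in all 3 pairs (54.9% and 17.4% of all genes). At an unadjusted limma p under 0.05, 3 were higher and 1 lower (5.95% and 3.02% of all genes). The acetyltransferase genes Kat2a and Kat2b were higher by 0.81 ± 0.20 and 0.58 ± 0.20 (SE), and Chd3, a remodeller of the NuRD complex, by 0.67 ± 0.21. Kdm7a, a demethylase of repressive histone marks, was 1.96-fold lower, with pair differences of -0.90, -1.53 and -0.49.

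**Figure D3:**
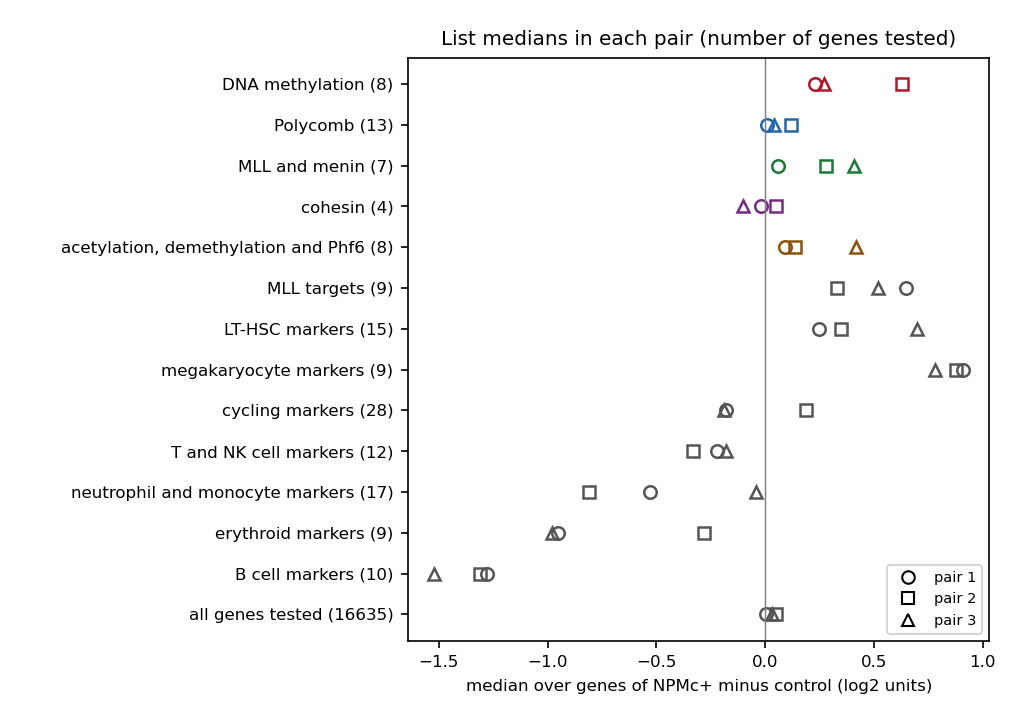
Median difference between NPMc+ and control (horizontal axis, log2 units) in each of the 3 pairs for the 5 role groups, MLL targets, marker lists and all genes tested, with the number of genes in brackets. The pair medians run from 0.23 to 0.63 for DNA methylation genes, from 0.06 to 0.41 for MLL and menin genes, from 0.01 to 0.12 for Polycomb genes and from -0.10 to 0.05 for cohesin genes, while B cell markers lie below -1.2 in each pair.

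The role groups did not share a strongest pair. The DNA methylation, Polycomb and cohesin genes had their highest medians in pair 2, where the genes of cycling cells had a median of 0.19. The MLL and menin genes and the acetylation and demethylation genes had theirs in pair 3, where cycling genes differed by -0.19, LT-HSC markers by 0.70, and neutrophil and monocyte markers by -0.04. In that pair Dnmt3b was higher in NPMc+ by 0.74, Dnmt3a by 0.68, Men1 by 1.13 and Phf6 by 0.74. B cell markers differed by medians of -1.28, -1.31 and -1.52 in the 3 pairs, close to evenly, and erythroid markers differed by -0.95, -0.28 and -0.98. The values of pair 3 come from 1 pair and have no test, and B cell, erythroid and LT-HSC markers differed there too. Whether sex, cell makeup or the cell cycle has a part in the differences of any pair was not tested.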

How the data were processed

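The authors deposited log2 expression values of 41345 probe sets for 6 arrays, made with RMA per the submitters' processing notes; no version and no later step is stated there. RMA compresses differences of dim genes. No background measurement was used. About 5 ng of RNA was amplified per array, per the labels' protocols. Array medians were 3.90 to 3.99. Same-numbered arrays share 1 mean per probe set (largest range 6.5e-05; at most 0.343% of probe sets met the 0.001 tolerance under other pairings).

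Of the probe sets, 1814 had several symbols, 16010 none and 23521 had 1; the latter stood for 22180 genes. Genes under the 25th percentile of mean level were dropped; 16635 genes, and all 40 measured members, remained. Differences were tested with limma 3.58.1 in R 4.3.3 (lmFit and eBayes, two-sided, replicate number as block, 2 residual and 4.54 prior degrees of freedom) and adjusted by Benjamini-Hochberg over all genes; figures used matplotlib 3.10.9. The fit was tested on simulated data built like these values. The block was kept because pair means are equal in the deposited values. The number of arrays limits the precision. Lists were described by counts and medians, without a test.

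The members, the lists, the block and the alternatives were chosen with earlier results of these data known. Members with an unadjusted p under 0.05 were described in full, and in a role group with fewer than 2 of these, the 2 with the largest absolute difference; of each wider list, up to 4 genes with an unadjusted p under 0.05 were named, those of smallest p. Levels of Dnmt1, Tet3, Mllt1 and Smc3 were added after their values were seen.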

Additional observations from a re-analysis of the deposited data

How the results depend on the processing

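Without the replicate block, limma counted 828 genes at an adjusted p under 0.05, among them Dnmt3a, Dnmt3b, Men1, Kdm6b and Phf6 (5 members, adjusted p 0.0171, 0.033, 0.0489, 0.0445 and 0.013), all higher. It assumes 4 residual degrees of freedom, but only 2 remain in these values. At an unadjusted p under 0.05 it put 12 members and 15.0% of all genes higher: 4 of DNA methylation, 1 of Polycomb, 3 of MLL and menin, 1 of cohesin and 3 of the others.

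Leaving out 1 pair at a time, limma counted 0 to 24 genes at an adjusted p under 0.05 and 0 members. The median of all members was 0.09 to 0.21, of MLL and menin genes 0.07 to 0.56 of Polycomb genes -0.03 to 0.08, of DNA methylation genes 0.25 to 0.51, of cohesin genes -0.06 to 0.02 and of acetylation and demethylation genes with Phf6 0.07 to 0.28, so the order of the groups depends on the pairs used. Of MLL and menin genes 0 to 2 were higher at an unadjusted p under 0.05. With 1 sign in both remaining pairs, 14 to 22 members were higher and 3 to 8 lower, as fewer pairs have to match.

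Quantile normalization, both other filters on dim genes, the mean of probe sets and the intensity trend left the counts of members at an unadjusted p under 0.05 within 1.5 times and moved no group median beyond the spread of its pair medians. Across 359 member values under the alternatives, 348 stayed on their side of an unadjusted p of 0.05, 10 moved past it (8 of them without the block), 1 was lost (Men1 without pair 3), and 0 called values changed sign. Of the 348, 25 changed sign, past the threshold in neither fit, so counts of genes above 0 vary with the setting. Cbx8 was below the 50th percentile filter. The cause of these shifts was not tested beyond the degrees of freedom and pair counts given.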
